A study of Mus musculus with 18 samples.

Results

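Prostaglandins are made, transported, sensed and destroyed by a small set of proteins, and 10 genes that cover these steps were followed here through the 18 RNA-seq libraries of a mouse study of RNF138 in chronic colitis and colitis-associated cancer (CAC). They were chosen by symbol (Ptgs2, Ptges, Ptgis, Ptgds, Pla2g4a, Hpgd, Slco2a1, Ptger2, Ptger3 and Ptger4), and all 10 were found among the 36757 genes of the deposited count table. Each of 6 groups had 3 libraries. Colon of the colitis model came from C57BL/6 mice that drank 2% dextran sulfate sodium (DSS) for 7 days and then plain water for 14 days, with the cycle repeated 2 times, and colon of the CAC model from mice that had also received 10 mg/kg of the carcinogen azoxymethane (AOM). The paper states that mice of both models were killed 4 weeks after the last DSS. Organoids were grown in matrigel from single tumor cells, released by digestion from tumor fragments of the CAC model, in a medium with EGF. The mice were 6 to 8 weeks old at the start and of both sexes. Within each model the libraries were labelled wild type, called RNF138 fl/fl by the study, or RNF138-/-. The promoter or Cre used for the deletion, the sex of the mouse behind each library and whether animals were pooled are not given in the sources used here, so p-values measure the spread between libraries, which may in part be technical.

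Cytosolic phospholipase A2, encoded by Pla2g4a, frees arachidonic acid from membranes, and cyclooxygenase-2 (Ptgs2), the enzyme induced in inflammation and blocked by aspirin-like drugs, turns it into prostaglandin H2. Terminal synthases then make prostaglandin E2 (Ptges), prostacyclin (Ptgis) or prostaglandin D2 (Ptgds). The transporter encoded by Slco2a1 carries prostaglandins across membranes, and 15-hydroxyprostaglandin dehydrogenase (Hpgd), which colon epithelium expresses strongly and which colorectal tumors often lose, inactivates them. Prostaglandin E2 acts on the receptors EP2, EP3 and EP4 (Ptger2, Ptger3 and Ptger4), and in the colon it is known for roles in repair of the epithelium, inflammation and tumor growth.

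No fall of Rnf138 itself in the libraries labelled RNF138-/- passed the test in any model, but a count over the whole gene cannot show a missing exon, so this value does not check the labels. It had 19.6 ± 4.95 CPM (read counts scaled to library size by TMM, mean ± SD, n = 3) in RNF138 fl/fl and 18.8 ± 0.759 in the libraries labelled RNF138-/- of colitis. The values were 25.4 ± 3.43 and 43.6 ± 3.41 in CAC and, for the organoids, 49.0 ± 9.79 and 46.9 ± 3.81. Each direction below is between labels. Total counts per library were between 11514716 and 24390082. Makeup differed between groups as read from cell type markers. The summed level of 7 fibroblast markers was between 958 and 1780 CPM in the 12 tissue libraries, between 9175 and 23410 in RNF138 fl/fl organoids and between 40760 and 50130 in the organoids labelled RNF138-/-, while 7 epithelial markers summed to between 5560 and 10740 CPM in the organoids. T cell markers summed to at most 0.346 CPM there. In CAC the libraries labelled RNF138-/- had between 113 and 242 CPM of 6 smooth muscle markers against between 2508 and 8388 in RNF138 fl/fl, and between 104 and 344 CPM of 5 colonocyte markers against between 1879 and 12620. The 4 Y-linked genes measured had 0 counts in every RNF138 fl/fl organoid library and between 15.03 and 185 CPM in every organoid library labelled RNF138-/-, so the sex of the source and the genotype cannot be told apart in the organoids.

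The member genes lie on autosomes of mm10. Ptgs2 (ENSMUSG00000032487.8) spans chr1:150100031-150108227 on the same chromosome as Pla2g4a (ENSMUSG00000056220.14, chr1:149829618-149961290), and Ptges (ENSMUSG00000050737.13, chr2:30889471-30929863), Ptgds (ENSMUSG00000015090.13, chr2:25466709-25470046) and Ptgis (ENSMUSG00000017969.13, chr2:167191805-167240604) share chromosome 2. Hpgd (ENSMUSG00000031613.9) is at chr8:56294585-56321043, Slco2a1 (ENSMUSG00000032548.14) at chr9:102988712-103096002, Ptger2 (ENSMUSG00000037759.6) at chr14:44988195-45003820, Ptger3 (ENSMUSG00000040016.16) at chr3:157566892-157645888 and Ptger4 (ENSMUSG00000039942.15) at chr15:5206661-5244187. All 10 are protein-coding, and at most 0.798% of the 50-base windows of any of them occur in another gene. Exons of Ptgis, Slco2a1, Ptger2 and Ptger4 overlap genes on the other strand, whose reads cannot be told apart from theirs because the use of strand in the counting is not given.

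The study asks about NF-κB signaling, so the 250 bases before the annotated start were read for the 9 members that the RefSeq promoter table (GRCm38.p6) holds. Ptgs2, whose RNA was the most abundant of the members in the organoids, and Ptgds, whose RNA went the opposite way there, are shown on their own strand, 5′ to 3′, from chr1:150099781-150100030 (+) and chr2:25469750-25469999 (−).
Ptgs2: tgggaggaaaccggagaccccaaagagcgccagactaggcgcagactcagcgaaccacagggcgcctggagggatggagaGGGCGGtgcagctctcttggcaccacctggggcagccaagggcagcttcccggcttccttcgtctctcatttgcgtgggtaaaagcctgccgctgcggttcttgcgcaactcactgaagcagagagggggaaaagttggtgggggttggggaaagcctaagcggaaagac
Ptgds: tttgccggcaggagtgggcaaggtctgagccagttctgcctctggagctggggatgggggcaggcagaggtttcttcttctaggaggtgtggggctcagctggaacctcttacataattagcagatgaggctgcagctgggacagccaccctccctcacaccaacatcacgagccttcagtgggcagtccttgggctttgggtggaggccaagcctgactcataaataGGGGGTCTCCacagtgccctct
Capitals mark matches on either strand to the NF-κB consensus, to the GC box GGGCGG or to the TATA box letters TATAAA, and no match overlapped another in these 2 windows. The NF-κB consensus matched in 1 of the 9 members, Ptgds, at 22 to 13 bases before the start, and in 7.28% of 32536 windows of the same length. The GC box matched in 6 of the 9 (Ptgs2, Ptges, Hpgd, Slco2a1, Ptger3 and Ptger4) and in 33.0% of all windows, and the TATA box letters in 2 (Pla2g4a and Slco2a1) and in 12.3%. These are matches of letters and show no binding, and sites outside the 250 bases were not read. The paper counts PTGS2 among the genes downstream of NF-κB in human tumors.

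**Figure D1:**
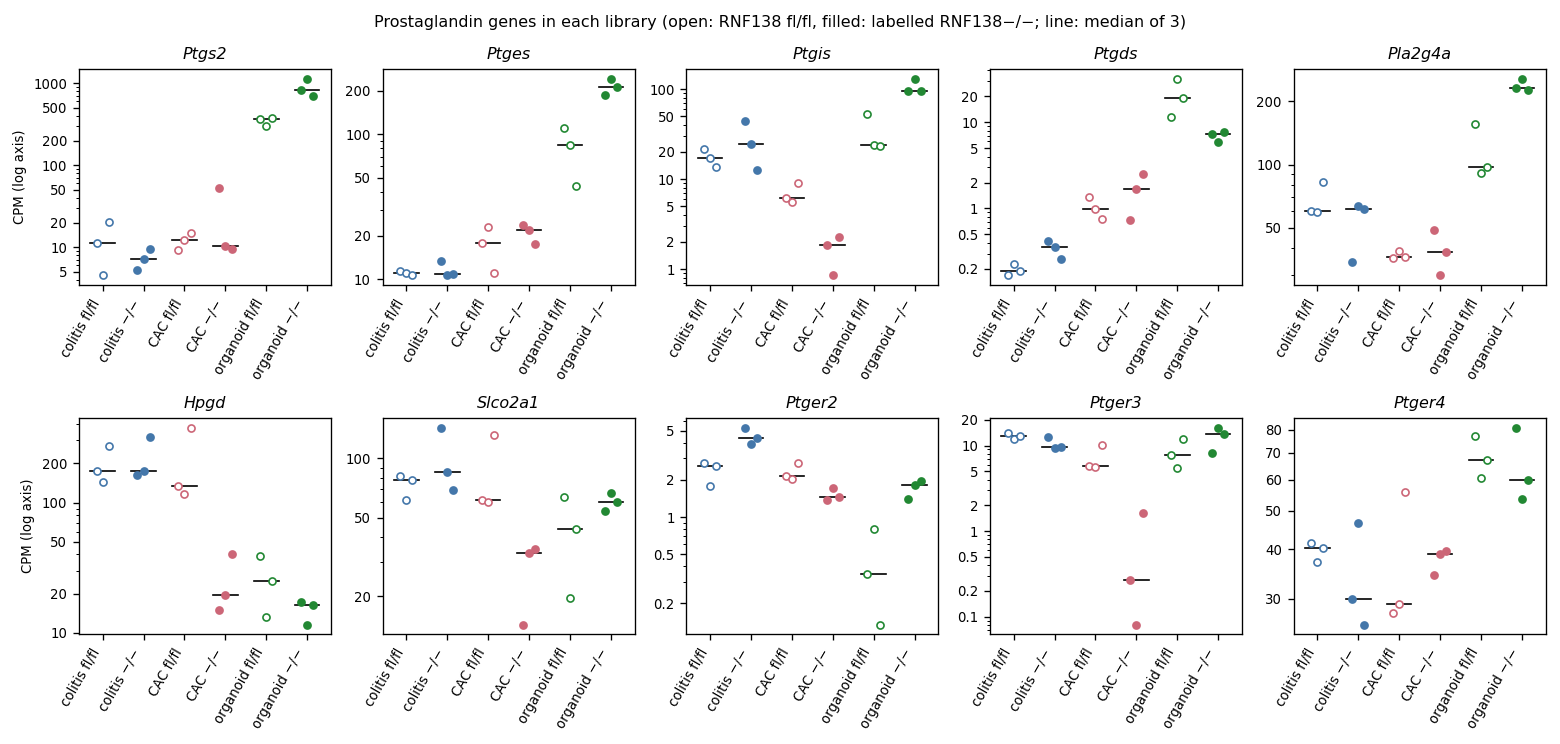
CPM (log axis, 1 panel a gene) of the 10 members in each of the 18 libraries by model and genotype label, with a line at the median of 3. The organoid libraries sit above all tissue libraries for Ptgs2, Ptges, Ptgds and Pla2g4a, and the 3 CAC libraries labelled RNF138-/- sit below the CAC RNF138 fl/fl libraries for Hpgd, Ptgis, Slco2a1, Ptger2 and Ptger3.

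Which member dominated depended on the model. Per kilobase of exon, so that genes can be compared, Hpgd had the highest level in RNF138 fl/fl colon, at 117 ± 40.3 CPM per kb in colitis (SD, n = 3) and 124 ± 85.4 in CAC. The next in colitis were Pla2g4a at 10.6 ± 2.02, Ptgis at 6.79 ± 1.50 and Ptger4 at 5.96 ± 0.343 CPM per kb, and the last 2 did not differ beyond their spread. Ptgs2 was low there, at 2.63 ± 1.73 CPM per kb. In RNF138 fl/fl organoids the order was led by Ptgs2 at 75.8 ± 8.71 CPM per kb, followed by Ptges at 20.2 ± 8.50, Pla2g4a at 17.99 ± 5.66 and Hpgd at 15.3 ± 7.62, of which the last 3 overlapped within their spread. In the organoids labelled RNF138-/- Ptgs2 had 195 ± 49.0, Ptges 54.4 ± 7.09, Ptgis 41.6 ± 7.97 and Pla2g4a 37.2 ± 2.44 CPM per kb. Ptger2 was the lowest or next to lowest in every group, between 0.0821 and 0.866 CPM per kb on average, while Ptger4 was the most abundant of the 3 EP receptors in every group.

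The organoids gave the most differences between genotype labels. In the libraries labelled RNF138-/-, the genes of prostaglandin synthesis Pla2g4a, Ptgs2, Ptges and Ptgis rose between 2.02-fold and 3.13-fold, the receptor Ptger2 rose 4.01-fold and the prostaglandin D2 synthase Ptgds fell 3.05-fold. With edgeR's quasi-likelihood test, called at least 2-fold apart with an adjusted p under 0.05, 5 of the 10 members were higher and 1 lower, where 7.94% of 15294 genes tested were higher and 7.04% lower. The median log2 fold change was 0.79 over the members and −0.04 over all genes tested.

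Ptgs2 had 367, 302 and 374 CPM in RNF138 fl/fl organoids and 839, 1139 and 700 CPM in those labelled RNF138-/-. All 3 libraries labelled RNF138-/- were above all 3 others, with a log2 fold change of 1.32 with an SE of 0.19 (adjusted p = 0.00307 by edgeR). In the fit of all 18 libraries, in which the tissue libraries share the estimate of the spread, the same difference had an adjusted p of 0.0994. Ptges, the inducible prostaglandin E2 synthase, had 110, 84.0 and 44.0 CPM against 187, 243 and 212 CPM. The groups did not overlap, with a log2 fold change of 1.39 (SE 0.29, adjusted p = 0.00949 by edgeR).

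Ptgis, the prostacyclin synthase, had 52.5, 24.2 and 23.1 CPM in RNF138 fl/fl organoids and 96.0, 131 and 94.1 CPM in the libraries labelled RNF138-/-. Replicate 1 of RNF138 fl/fl was the highest of its group and still below the others, and the log2 fold change was 1.65 with an SE of 0.31 (adjusted p = 0.0064 by edgeR). Pla2g4a had 156, 90.9 and 97.4 CPM against 231, 256 and 227 CPM. Its log2 fold change of 1.01 with an SE of 0.20 (adjusted p = 0.00739 by edgeR) was just past the 2-fold threshold, and it fell short of it with counts scaled by library totals (0.82) and without RNF138 fl/fl replicate 2 (0.88) or 3 (0.91) or replicate 2 labelled RNF138-/- (0.97).

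Ptgds went the other way, with 11.4, 32.1 and 18.9 CPM in RNF138 fl/fl organoids and 7.37, 5.93 and 7.76 CPM in those labelled RNF138-/-. The groups did not overlap, with a log2 fold change of −1.61 with an SE of 0.36 (adjusted p = 0.0114 by edgeR). Ptger2 rested on few reads, 6, 10 and 2 counts (0.346, 0.798 and 0.135 CPM) against 20, 34 and 26 counts (1.40, 1.80 and 1.94 CPM). Its log2 fold change was 2.00 with an SE of 0.52 (adjusted p = 0.0208 by edgeR). Without replicate 2 labelled RNF138-/- neither Ptgds (adjusted p = 0.0519) nor Ptger2 (0.0704) passed, and without replicate 3 labelled RNF138-/- Ptger2 did not (0.0705).

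The other 4 members did not pass in the organoids. Hpgd had 38.9, 13.2 and 25.2 CPM against 17.4, 11.6 and 16.3 CPM, and these groups overlapped (log2 fold change −0.81 with an SE of 0.34, adjusted p = 0.0977 by edgeR). Without RNF138 fl/fl replicate 2 it passed, with a log2 fold change of −1.12 (adjusted p = 0.022). Slco2a1, Ptger3 and Ptger4 had log2 fold changes of 0.47 (SE 0.34), 0.56 (SE 0.33) and −0.11 (SE 0.17). The groups did not overlap in 6 of the 10 members, where 53.2% of the genes tested did not overlap.

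**Figure D2:**
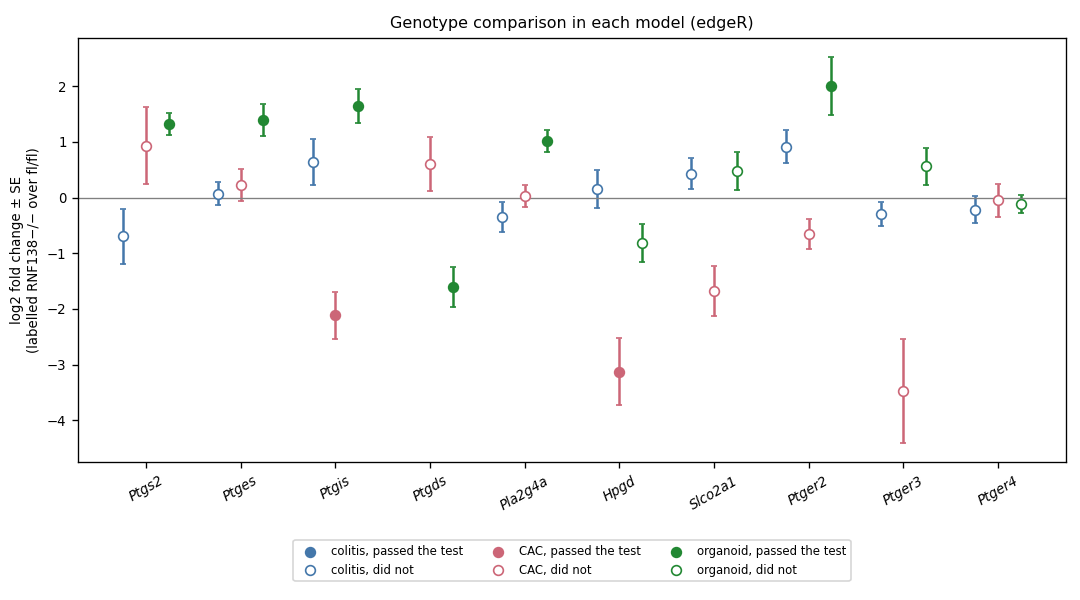
Log2 fold change (labelled RNF138-/- over RNF138 fl/fl, with its standard error) of each member in colitis, CAC and organoids by edgeR. Filled points passed an adjusted p under 0.05 and 2-fold. They are 0 members in colitis, Hpgd and Ptgis in CAC, and 6 members in the organoids, and Ptgds was not tested in colitis.

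Fibroblast markers moved with these genes. Of the 7 fibroblast markers tested in the organoids, 6 were higher in the libraries labelled RNF138-/- and 0 lower, and 2 of 6 smooth muscle markers, 3 of 5 macrophage markers tested and 1 of 4 endothelial markers tested were higher. Of 5 goblet cell markers 2 were lower. So was 1 of the 7 epithelial, 5 tuft cell, 2 neutrophil, 3 lymphatic endothelial and 2 neuron and glia markers tested. Of all genes tested 7.94% were higher and 7.04% lower. Markers of 1 list did not always move together, as tuft cell marker Avil went from 32.1 to 12.7 CPM on average and Dclk1 from 22.4 to 44.0. The lymphatic sum, 367 CPM in RNF138 fl/fl organoids, was nearly all Prox1 (364 CPM). The summed level of macrophage markers was between 20.9 and 28.8 CPM in RNF138 fl/fl organoids and between 30.4 and 46.1 in those labelled RNF138-/-. In bulk RNA more cells of a type and more RNA per cell cannot be told apart. Set against 1000 CPM of fibroblast markers in the same library, Ptgis had between 2.24 and 2.63 CPM in RNF138 fl/fl organoids and between 2.02 and 2.603 in those labelled RNF138-/-, so that on this scale the groups overlapped. Ptges had between 4.48 and 9.16 against between 4.55 and 4.84, and Ptgs2 between 15.7 and 38.1 against between 14.999 and 22.7, which also overlapped. Pla2g4a had between 6.68 and 9.92 against between 4.87 and 5.67, so its order was turned. Set against 1000 CPM of epithelial markers, Ptgs2 had between 30.4 and 36.7 CPM against between 93.7 and 205, and Pla2g4a between 9.17 and 14.6 against between 28.3 and 46.0. The part of the fibroblast markers in the genotype differences was not tested.

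**Figure D3:**
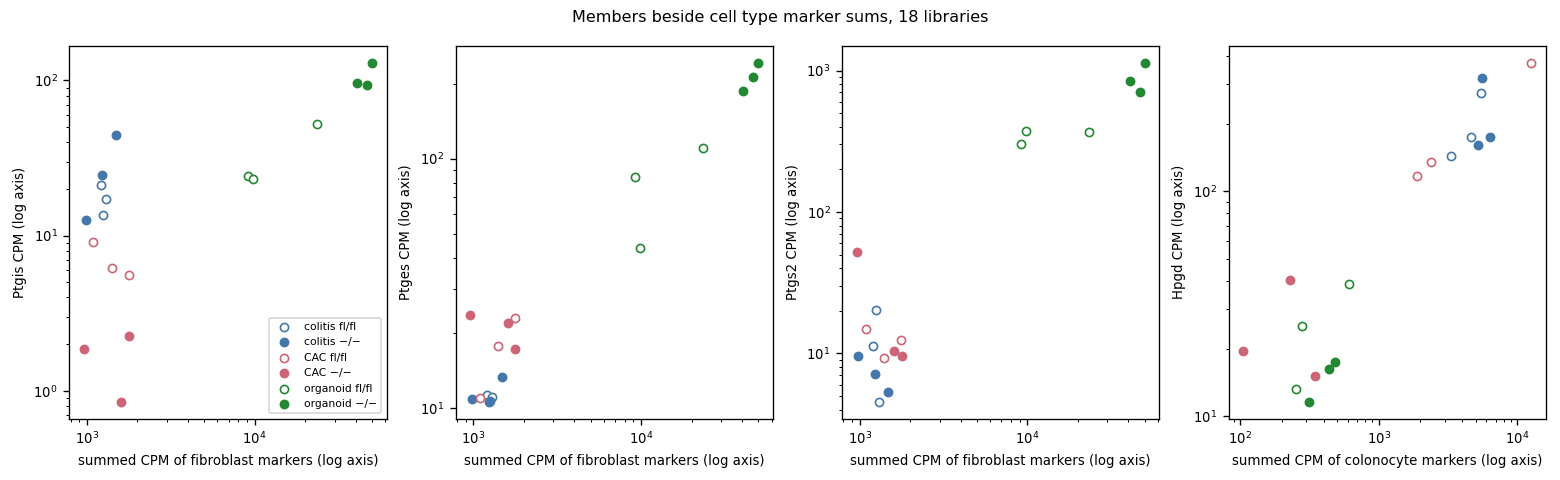
CPM of Ptgis, Ptges, Ptgs2 and Hpgd (log axis) against the summed CPM of 7 fibroblast or 5 colonocyte markers (log axis) in the same 18 libraries, each point 1 library. The 3 organoid libraries labelled RNF138-/- sit at the highest fibroblast sums and the highest Ptgis, Ptges and Ptgs2, and the CAC libraries labelled RNF138-/- sit with the organoids at low colonocyte sums and low Hpgd.

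In CAC the members called were Hpgd, the enzyme of breakdown, and the prostacyclin synthase Ptgis. Hpgd fell 8.74-fold and Ptgis 4.34-fold in the libraries labelled RNF138-/-, and these 2 of the 10 members were lower and 0 higher, where 4.83% of 17752 genes tested were lower and 0.546% higher. The median log2 fold change was −0.35 over the members and 0.01 over all genes tested.

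Hpgd had 135, 117 and 375 CPM in RNF138 fl/fl CAC and 15.05, 19.4 and 40.6 CPM in CAC labelled RNF138-/-. RNF138 fl/fl replicate 3 stood far above its group, and all 3 libraries labelled RNF138-/- were below it and the others, with a log2 fold change of −3.13 with an SE of 0.61 (adjusted p = 0.0406 by edgeR). That replicate 3 also had 12620 CPM of colonocyte markers, against 2395 and 1879 in replicates 1 and 2. With 1 library left out the log2 fold change of Hpgd was between −3.64 and −2.37. Ptgis had 6.15, 5.60 and 9.09 CPM against 1.86, 0.850 and 2.26 CPM, from 96 to 119 counts against 21 to 50. Its log2 fold change was −2.12 with an SE of 0.43 (adjusted p = 0.0429 by edgeR). Both calls lay close to the threshold. Leaving out 1 library gave adjusted p-values by edgeR between 0.0268 and 0.163 for Hpgd and between 0.0493 and 0.141 for Ptgis. Neither passed without RNF138 fl/fl replicate 1 or without replicate 1, 2 or 3 labelled RNF138-/-, and Ptgis did not pass without RNF138 fl/fl replicate 2. With the level of 4 Y-linked genes as a covariate the log2 fold changes were −2.78 for Hpgd (adjusted p = 0.389 by edgeR) and −2.44 for Ptgis (adjusted p = 0.297), about as large as without it. In that fit 0 of all genes tested were called, so the loss of both calls does not show that the covariate removes the differences.

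A further 2 members had large differences that missed the adjusted p. Ptger3, the EP3 receptor, had 5.72, 5.64 and 10.0 CPM in RNF138 fl/fl CAC and 0.266, 0.0810 and 1.63 CPM (5, 2 and 36 counts) in CAC labelled RNF138-/-, with a log2 fold change of −3.48 with an SE of 0.93 (adjusted p = 0.0658 by edgeR). Slco2a1, the prostaglandin transporter, had 61.5, 60.1 and 132 CPM against 14.4, 33.3 and 34.5 CPM, with a log2 fold change of −1.68 with an SE of 0.45 (adjusted p = 0.0665 by edgeR). Without replicate 3 labelled RNF138-/- Ptger3 passed (−5.40, adjusted p = 0.0468 by edgeR). Both genes passed in the fit of all 18 libraries, with the replicate block, without a filter on low counts and by DESeq2, where 4 of the 10 members were lower. Of all genes, 2834, 1079, 1641 and 2654 were called in these fits in turn, against 954 in the main fit. Ptger2 also did not overlap between the groups, at 2.15, 2.02 and 2.75 CPM against 1.38, 1.70 and 1.45 CPM (log2 fold change −0.65 with an SE of 0.27, adjusted p = 0.144 by edgeR). In total, 5 of 10 members did not overlap, each lower in CAC labelled RNF138-/-, where 45.2% of the genes tested did not overlap.

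Ptgs2 in CAC was decided by 1 library. It had 9.29, 12.4 and 14.96 CPM in RNF138 fl/fl and 52.5, 10.4 and 9.51 CPM in the libraries labelled RNF138-/-, so only replicate 1 was above the RNF138 fl/fl range. The log2 fold change was 0.93 with an SE of 0.69 (adjusted p = 0.366 by edgeR) and turned to −0.35 without that library. Ptges, Pla2g4a and Ptger4 had log2 fold changes of 0.22 (SE 0.28), 0.03 (SE 0.20) and −0.05 (SE 0.29), and Ptgds one of 0.61 (SE 0.48).

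Markers of other cells moved with the lower members of CAC. In CAC labelled RNF138-/- all 6 smooth muscle markers were lower by the same test, as were 5 of 5 goblet cell markers, 5 of 5 B and plasma cell markers, 2 of 5 colonocyte markers, 3 of 3 adipocyte markers tested, 3 of 6 neuron and glia markers, 1 of 6 mast cell markers and 1 of 3 skeletal muscle markers tested, while 0 of 7 fibroblast, 0 of 6 endothelial and 0 of 7 epithelial markers passed. Of all genes tested in CAC 4.83% were lower and 0.546% higher. Set against 1000 CPM of colonocyte markers, Hpgd had between 29.7 and 62.5 CPM in RNF138 fl/fl CAC and between 43.8 and 186 in CAC labelled RNF138-/-. Set against 1000 CPM of epithelial markers it stayed lower, between 1.84 and 5.74 CPM against between 11.7 and 25.96. Ptgis per 1000 CPM of fibroblast markers also stayed lower, between 0.531 and 1.94 CPM in CAC labelled RNF138-/- against between 3.16 and 8.32 in RNF138 fl/fl. Ptgis per 1000 CPM of smooth muscle markers went the other way and was between 2.05 and 2.74 in RNF138 fl/fl colitis, between 1.08 and 2.45 in RNF138 fl/fl CAC and between 4.91 and 16.4 in CAC labelled RNF138-/-, where the marker sum was near its lowest. Slco2a1 per 1000 CPM of endothelial markers was between 337 and 1095 CPM against between 128 and 206. Ptger3 per 1000 CPM of smooth muscle markers was between 1.20 and 2.28 CPM in RNF138 fl/fl CAC and between 0.467 and 6.73 in CAC labelled RNF138-/-, so that on this scale its groups overlapped. The part of these markers in the genotype differences was not tested.

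In colitis none of the members differed between genotype labels past the threshold. With edgeR 0 of the 9 members tested were called, where 0.0180% of 16623 genes were higher and 0.0722% lower. Ptger2, the EP2 receptor, came closest, with 2.74, 1.80 and 2.601 CPM in RNF138 fl/fl and 5.27, 3.90 and 4.33 CPM in the libraries labelled RNF138-/-. These did not overlap, and the log2 fold change was 0.92 with an SE of 0.30 (unadjusted p = 0.0146 and adjusted p = 0.333 by edgeR). It was the 1 member with an unadjusted p under 0.05. DESeq2 also called 0 members.

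Hpgd in colitis had 174, 143 and 273 CPM against 162, 175 and 320 CPM (log2 fold change 0.16, SE 0.34), and its groups overlapped. Ptgs2 had 11.2, 4.55 and 20.3 CPM against 5.33, 7.14 and 9.65 CPM, with a log2 fold change of −0.70 (SE 0.50). Ptgis had 21.3, 17.3 and 13.6 CPM against 44.3, 24.8 and 12.6 CPM, with a log2 fold change of 0.63 (SE 0.42). Its highest value was in the library with the highest sum of smooth muscle markers (14540 CPM), and per 1000 CPM of those markers it was between 2.05 and 2.74 CPM against between 2.52 and 3.04. The log2 fold changes of Ptges, Pla2g4a, Slco2a1, Ptger3 and Ptger4 were between −0.35 and 0.43. Ptgds had only 3 to 7 counts per library and was removed by the filter on low counts. Of the members tested, the groups of 1, Ptger2, did not overlap, where 17.2% of the genes tested did not overlap. Those of Ptgds, which was not tested, did not overlap either.

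The genotype difference itself differed between models for several members, tested as a contrast of contrasts in one edgeR fit of all 18 libraries. The difference was lower in CAC than in colitis for Hpgd (−3.22 on the log2 scale, SE 0.69, adjusted p = 0.00809), Ptger3 (−3.12, SE 0.81), Ptgis (−2.70, SE 0.62) and Slco2a1 (−2.05, SE 0.59). These were 4 members lower and 0 higher, where 9.37% of 19390 genes were lower and 2.57% higher. Slco2a1 did not pass without RNF138 fl/fl replicate 1 or 2 or replicate 1 labelled RNF138-/- of colitis, or without RNF138 fl/fl replicate 3 or replicate 1 labelled RNF138-/- of CAC (between −2.18 and −1.58). Ptger3 did not pass when only the groups compared were fitted (−3.12, adjusted p = 0.0522 by edgeR).

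Between organoids and CAC, which share the mouse model but not the tissue, 6 members had a higher genotype difference in the organoids and 1 a lower one, where 11.4% of genes were higher and 7.54% lower. They were Ptger3 (4.01, SE 0.82), Ptgis (3.74, SE 0.63), Ptger2 (2.63, SE 0.56), Hpgd (2.28, SE 0.69), Slco2a1 (2.13, SE 0.59) and Ptges (1.16, SE 0.39), and Ptgds was lower (−2.22, SE 0.57). The calls of Hpgd and Ptges were lost in most of the fits that left out 1 library, and that of Ptgds with the replicate block (adjusted p = 0.0502 by edgeR). Ptgis thus went down in CAC and up in the organoids, each past its own test. Between organoids and colitis the difference was higher for Pla2g4a (1.40, SE 0.35, adjusted p = 0.0264) and Ptges (1.36, SE 0.40, adjusted p = 0.0497), 2 members higher and 0 lower, where 3.52% of genes were higher and 2.20% lower. Both were lost with library totals, and without RNF138 fl/fl replicate 1 or 3 of colitis, RNF138 fl/fl replicate 2 or 3 of the organoids or replicate 2 labelled RNF138-/- of the organoids. These contrasts share libraries, so their lists are not independent. Those with organoids use the RNF138 fl/fl organoids, which had 0 counts of the Y-linked genes measured, so the sex of the source cannot be told apart there.

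Models were compared within each genotype label. From RNF138 fl/fl colitis to RNF138 fl/fl CAC 2 members were called. Ptgis fell 2.53-fold, from between 13.6 and 21.3 CPM to between 5.60 and 9.09, and Ptgds rose 5.26-fold, from 3 or 4 counts to between 8 and 22. The call of Ptgis was lost without replicate 1 or 2 of either group (log2 fold changes between −1.39 and −1.19). These were 1 member lower and 1 higher, where 3.81% of 19390 genes were lower and 9.78% higher. Pla2g4a fell by 0.87 on the log2 scale (SE 0.25, adjusted p = 0.0219), which is under the 2-fold threshold.

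From colitis to CAC among the libraries labelled RNF138-/-, 5 members were lower and 2 higher, where 19.6% of genes were lower and 17.5% higher. Ptgis fell 16.5-fold, Ptger3 15.8-fold, Hpgd 8.74-fold, Slco2a1 3.61-fold and Ptger2 2.96-fold. Ptger3 had only 5, 2 and 36 counts in CAC, and with 1 library left out its log2 fold change was between −5.94 and −3.44. Between the same groups the summed level of smooth muscle markers went from between 4998 and 14540 to between 113 and 242 CPM and that of colonocyte markers from between 5225 and 6320 to between 104 and 344 CPM, and their part in these falls was not tested. Ptgds rose 4.74-fold, and Ptgs2 rose 3.26-fold (log2 fold change 1.70 with an SE of 0.57, adjusted p = 0.0192 by edgeR) with the 1 CAC library of 52.5 CPM among its values. Without that library the log2 fold change was 0.43 (adjusted p = 0.413 by edgeR), and Ptgs2 also did not pass with only the groups compared (1.67, adjusted p = 0.0722) or without replicate 1 (1.52, adjusted p = 0.0725) or 2 (1.60, adjusted p = 0.0675) of colitis labelled RNF138-/-.

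From CAC tissue to organoids the synthesis genes rose under both labels. In RNF138 fl/fl, Ptgs2 rose 28.5-fold, from between 9.29 and 14.96 to between 302 and 374 CPM, Ptgds 19.7-fold, Ptgis 4.84-fold, Ptges 4.57-fold and Pla2g4a 3.11-fold, while Hpgd fell 8.09-fold and Ptger2 5.46-fold. These were 5 members higher and 2 lower, where 17.5% of genes were higher and 26.8% lower. Slco2a1 lay just short of the 2-fold threshold (−0.99) and was called lower by DESeq2 (−1.04), with library totals (−1.12), with RLE scaling, with the stricter filter and without RNF138 fl/fl replicate 1 or 2 of CAC or 1 of the organoids. In the libraries labelled RNF138-/-, Ptgis rose 64.7-fold, Ptgs2 37.1-fold, Ptger3 19.1-fold, Ptges 10.2-fold, Pla2g4a 6.11-fold, Ptgds 4.23-fold and Slco2a1 2.20-fold. Ptger3 started from 5, 2 and 36 counts in CAC, and with 1 library left out its log2 fold change was between 3.7 and 6.2. With library totals, which shifted the median of all genes by −0.62, Hpgd was called lower (−1.35 on the log2 scale, adjusted p = 0.0169 by edgeR). Slco2a1 was then not called (0.50), so 6 members were higher and 1 lower. Of all genes 10330 were called with that scaling, against 8604 in the main fit. Slco2a1 also did not pass without replicate 1 of CAC (0.82) or replicate 2 (1.07) or 3 (1.14) of the organoids, each labelled RNF138-/-. In the main fit 7 members were higher and 0 lower, where 17.9% of genes were higher and 26.5% lower. Hpgd was not among them. It had 25.0 ± 13.7 CPM in CAC labelled RNF138-/- and stood at 15.1 ± 3.08 in the organoids (log2 fold change −0.73, SE 0.49). Organoids and tissue also differed in culture and in cell makeup, and these cannot be told apart from the model. In RNF138 fl/fl the 4 Y-linked genes had 0 counts in the organoids and between 23.4 and 83.5 CPM in the CAC libraries. In that comparison the sex of the source cannot be told apart from the model either.

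Synthesis and breakdown were set side by side as the log2 ratio of Ptgs2 to Hpgd CPM in each library, with no test. CPM are not scaled to exon length, which is 4.58 kb for Ptgs2 and 1.683 kb for Hpgd. Every ratio is thereby shifted toward Ptgs2 by the same factor. In colitis it was −3.95, −4.98 and −3.75 in RNF138 fl/fl and −4.92, −4.61 and −5.05 in the libraries labelled RNF138-/-. In CAC it was −3.86, −3.24 and −4.65 against 1.80, −0.89 and −2.09. Replicate 1 labelled RNF138-/- was the only tissue library with more Ptgs2 than Hpgd in CPM. Per kilobase of exon it had 11.5 against 8.94 CPM. In the organoids it was 3.24, 4.51 and 3.89 against 5.59, 6.62 and 5.43. The groups of CAC and of the organoids did not overlap, while those of colitis did.

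**Figure D4:**
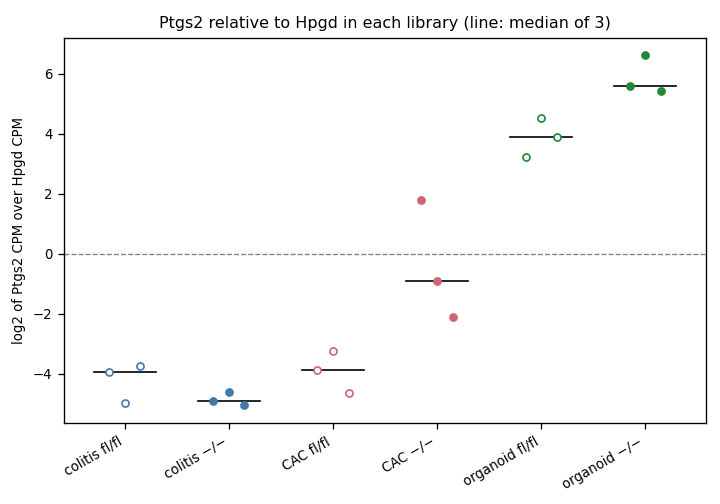
Log2 ratio of Ptgs2 to Hpgd CPM (not scaled to exon length) in each of the 18 libraries by model and genotype label, with a line at the median of 3 and a dashed line at equal CPM. All colitis and CAC RNF138 fl/fl libraries are at or below −3.24, the CAC libraries labelled RNF138-/- are between −2.09 and 1.80, and all organoid libraries are at or above 3.24.

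A further 24 genes of the prostaglandin pathway were read as a list. In colitis 0 of 22 tested passed, and in CAC 2 of 22 were lower and 0 higher, where 4.83% of all genes tested were lower and 0.546% higher. The lower ones were Tbxa2r, the thromboxane receptor, with 2.46, 3.62 and 3.41 CPM in RNF138 fl/fl and 0.957, 0.526 and 0.815 CPM in the libraries labelled RNF138-/- (log2 fold change −2.10 with an SE of 0.34, adjusted p = 0.0313 by edgeR), and Cbr1, a carbonyl reductase that can reduce prostaglandins, with 161, 152 and 259 CPM against 77.0, 87.7 and 75.5 (−1.31, SE 0.24, adjusted p = 0.0378). Both calls were lost, as were those of all genes, without replicate 1 or 2 labelled RNF138-/- and with the Y-linked covariate. The median log2 fold change of the list was −0.38 in CAC.

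In the organoids 4 of 20 tested were higher and 2 lower, where 7.94% of all genes tested were higher and 7.04% lower. Ptgs1, the constitutive cyclooxygenase, had 80.7, 55.6 and 38.1 CPM against 154, 170 and 155 CPM (log2 fold change 1.42 with an SE of 0.24, adjusted p = 0.00429 by edgeR). The prostacyclin receptor Ptgir had 4.67, 2.71 and 2.43 CPM against 9.90, 17.1 and 11.8 CPM (1.93, SE 0.31, adjusted p = 0.00403 by edgeR). Both genes were above the RNF138 fl/fl range in all 3 libraries labelled RNF138-/-. The other higher ones were Tbxa2r (1.70, SE 0.48) and the prostaglandin F receptor Ptgfr (1.51, SE 0.49), which was at most 1.75 CPM. Hpgds, the hematopoietic prostaglandin D2 synthase, fell like Ptgds, from 23.7, 40.3 and 35.0 CPM to 7.16, 5.35 and 8.29 CPM (−2.30, SE 0.25, edgeR, adjusted p = 0.00131), and the secreted phospholipase Pla2g5 fell by 1.46 on the log2 scale (SE 0.34). The median of the list was −0.17.

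The leukotriene and lipoxygenase branch, which also starts from arachidonic acid, was read as a list of 9 genes. Of all genes tested in the organoids 7.94% were higher and 7.04% lower. The shares for CAC were 0.546% higher and 4.83% lower, and those for colitis 0.0180% higher and 0.0722% lower. In colitis 0 of 7 tested from the list passed, in CAC 0 of 8, and in the organoids 1 of 3. That was Alox12, a 12-lipoxygenase, with 398, 571 and 461 CPM in RNF138 fl/fl organoids and 236, 224 and 273 CPM in those labelled RNF138-/- (log2 fold change −1.01 with an SE of 0.17, adjusted p = 0.00425 by edgeR). Alox12 went the other way in tissue. It had between 2.65 and 47.9 CPM in RNF138 fl/fl CAC and between 89.4 and 194 in CAC labelled RNF138-/-. For colitis the values were between 0.867 and 1.955 CPM against between 1.961 and 2.82. The groups did not overlap in either model, but neither difference passed. The other 6 genes of this branch, which include Alox5, Alox5ap and Ltc4s, were too low to be tested in the organoids. Markers of T, B and mast cells were also near 0 there.

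The genes whose level was most like that of a member over the 18 libraries were found by Pearson's r of log2(CPM + 1) among 14059 genes tested in all 3 models. This is a description, since the libraries of a group share their source. Ptgs2 was most like Ereg, an EGF receptor ligand (r = 0.987), Ero1l, a protein-folding oxidase (0.983), and Cdv3 (0.982). Ptges was most like Bdkrb1, a bradykinin receptor (0.987), Bhlhe22 (0.986) and the collagen gene Col5a2 (0.986), and Ptgis like Sgce (0.981), Tpst1 (0.979) and Smim1 (0.978). Hpgd was most like Slc9a2, a sodium/hydrogen exchanger of epithelium (0.979), Sult1d1 (0.976) and Slc16a5 (0.971), and Pla2g4a like Stt3a, a subunit of the glycosylation enzyme (0.980), Hspa13 (0.975) and Sod2, the mitochondrial superoxide dismutase (0.967). Among the 9 members tested in all 3 models, which leaves out Ptgds, Ptgs2 and Ptges were the most alike (r = 0.944), and Ptges and Hpgd the most opposed (−0.802).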

How the data were processed

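Bulk RNA-seq of 18 libraries was used, 3 for each genotype label in the colitis model, the CAC model and CAC-derived organoids. The authors deposited whole-number read counts per gene without normalization. The paper names paired-end NovaSeq reads, mm10, Cufflinks and Gencode v.M8, and the submitters' processing notes list STAR 2.6.1d, HTSeq 0.11.2 and DESeq2 without saying how each was used. A table of the authors' own log2 fold changes and p-values was not used. Of 36757 genes, 36700 were matched to GENCODE M21 of the same build by base identifier.

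Genotypes were compared within each model by edgeR 4.0.16 (R 4.3.3; TMM, filterByExpr, glmQLFit, glmQLFTest, Benjamini-Hochberg over all genes tested), called at an adjusted p under 0.05 and at least 2-fold, as in the study. Contrasts between models came from one fit of 18 libraries. CPM are scaled by TMM over 18 libraries. A standard error is the log2 fold change divided by the square root of its F statistic. The fits were tested on simulated data. Their spread between libraries was set below that of colitis (biological coefficient of variation 0.296) and CAC (0.327). Recovery there therefore does not show how well changes of that size would be found in these models. DESeq2 1.42.0 and the settings named in the closing section were alternatives. The members, gene lists and tests were chosen with earlier results of these data known. All 10 members are named; of the other lists, the genes that passed in a genotype comparison; for likeness, the 3 genes of highest r for 5 of the 9 members tested in all 3 models, those with most genotype calls and, among members with as many calls, the highest mean CPM (Ptgis had 2 calls and the other 4 had 1 each). Total counts were between 11514716 and 24390082, and no 2 libraries of a group were copies (chi-square per degree of freedom at least 8.05). Replicate numbers of the labels were checked for pairing by the correlation of deviations from group means. It was 0.319, 0.168 and 0.633 for the 3 same-numbered pairs of colitis. Pairs of colitis with different numbers reached 0.358 (RNF138 fl/fl 1 with 2 labelled RNF138-/-) and 0.364 (2 with 1), so pairing by number was not shown. The colitis values given come from the fit without pairs, and the blocked fit called 0 members as well. The correlation was below 0.1 for at least 1 same-numbered pair of CAC (0.047, 0.323 and 0.085) and of the organoids (−0.243, −0.094 and 0.112), which were not taken as paired.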

Additional observations from a re-analysis of the deposited data

Results flagged for a closer look

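The genotype difference of 8 members differed between models by an interaction contrast in edgeR's fit of 18 libraries, on the log2 scale. Groups of 3 libraries are too small for a test of single outlying samples. Between CAC and colitis the difference was −2.70 for Ptgis (adjusted p = 0.0116), −3.22 for Hpgd (0.00809), −2.05 for Slco2a1 (0.03) and −3.12 for Ptger3 (0.0202). Between organoids and CAC it was 1.16 for Ptges (adjusted p = 0.0426), 3.74 for Ptgis (0.000817), −2.22 for Ptgds (0.0113), 2.28 for Hpgd (0.0263), 2.13 for Slco2a1 (0.0169), 2.63 for Ptger2 (0.00408) and 4.01 for Ptger3 (0.00316). Between organoids and colitis it was 1.36 for Ptges (adjusted p = 0.0497) and 1.40 for Pla2g4a (0.0264). Between organoids and CAC Ptges passed in only those fits without 1 library that left out RNF138 fl/fl replicate 3 of CAC or RNF138 fl/fl replicate 1 of the organoids, and between organoids and colitis only in the one without RNF138 fl/fl replicate 1 of the organoids. It was also lost with library totals in both contrasts (0.76 and 1.17), between organoids and CAC with only the groups compared (1.19) and between organoids and colitis with the stricter filter (1.32). The call of Hpgd between organoids and CAC was lost without RNF138 fl/fl replicate 3 or replicate 1 or 2 labelled RNF138-/- of CAC, and without RNF138 fl/fl replicate 2 or 3 or replicate 1 or 3 labelled RNF138-/- of the organoids (log2 differences between 1.56 and 2.30 in these fits, adjusted p between 0.0517 and 0.0845 by edgeR). With the replicate block Ptgds was −1.99 there (adjusted p = 0.0502). In the CAC libraries labelled RNF138-/-, Ptger3 rested on 5, 2 and 36 counts and Ptgis on between 21 and 50. The sums of fibroblast markers in the organoids and of smooth muscle and colonocyte markers in CAC differed between the same groups, and their part in these contrasts was not tested. In the contrasts with organoids the sex of the source cannot be told apart from the genotype label.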

How the results depend on the processing

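The counts of members called were 0 in colitis under every alternative run. In CAC the main count of 2 became 1 with library totals alone, 4 without a filter on low counts, 4 with the replicate block, 4 with all 18 libraries in one fit, 4 by DESeq2 and 0 with the Y-linked covariate, and it was between 0 and 2 with 1 library left out (0 without RNF138 fl/fl replicate 1 or replicate 1 or 2 labelled RNF138-/-, and 1 without RNF138 fl/fl replicate 2 or replicate 3 labelled RNF138-/-). Among all genes of CAC, 954 were called, against 2654 by DESeq2, 2834 in the fit of all libraries, 1641 without a filter and 0 with the covariate (by edgeR). Without 1 library of CAC it was 0 (replicate 1 labelled RNF138-/-), 0 (replicate 2), 109 (replicate 3), 287 (RNF138 fl/fl replicate 1), 672 (replicate 2) and 1136 (replicate 3). In colitis it was 15, against 337 by DESeq2, 354 without a filter, 177 with the covariate and 89 with the block. The replicate block, tried although the replicate numbers were not shown to be paired, changed no other count of members. In the organoids 6 members were called, and between 3 (without replicate 2 labelled RNF138-/-) and 6 with 1 library left out. For CAC against colitis in RNF138 fl/fl the count of 2 was between 1 and 2 with 1 library left out (1 without replicate 1 or 2 of either model). For the genotype difference in organoids minus colitis the count of 2 was 1 with library totals (Ptgds, so that Pla2g4a and Ptges were both lost), 4 with only the groups compared and between 0 and 3 with 1 library left out, and it was 0 without RNF138 fl/fl replicate 1 or 3 of colitis, RNF138 fl/fl replicate 2 or 3 or replicate 2 labelled RNF138-/- of the organoids, and 1 without RNF138 fl/fl replicate 2 or any replicate labelled RNF138-/- of colitis or replicate 1 or 3 labelled RNF138-/- of the organoids, where Ptges was lost each time. Library totals shifted the median of all genes by 0.26 in CAC and −0.20 in the organoids on the log2 scale.

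No member that was called turned in sign under any alternative run. Of the values that had not passed, the genotype log2 fold change in CAC was 0.28 for Ptger4 with library totals, 0.004 without a filter, 0.03 with the replicate block, 0.01 in the fit of all libraries and 0.42 with the Y-linked covariate, and for Pla2g4a −0.002 with the block and −0.18 with the covariate. With 1 library left out, it was between −0.35 and 1.33 for Ptgs2, −0.17 and 0.21 for Pla2g4a and −0.24 and 0.38 for Ptger4 in CAC, between −0.04 and 0.12 for Ptges and −0.24 and 0.46 for Hpgd in colitis, and between −0.30 and 0.02 for Ptger4 in the organoids. For CAC against colitis in RNF138 fl/fl it was 0.003 for Ptger2 with library totals, −0.002 for Ptgs2 with the stricter filter and −0.02 for Hpgd with the block, and with 1 library left out between −0.42 and 0.61 for Ptgs2, −0.64 and 0.38 for Hpgd, −0.27 and 0.36 for Slco2a1, −0.26 and 0.03 for Ptger2 and −0.48 and 0.07 for Ptger4. With the RNF138-/- label it was between −0.08 and 0.35 for Ptger4. For organoids against CAC it was between −0.12 and 0.56 for Ptger3 in RNF138 fl/fl and −0.44 for Ptger2 with library totals under the RNF138-/- label. The genotype difference in CAC minus colitis was 0.09 for Ptgds with library totals, and with 1 library left out between −0.57 and 0.19 for Ptgds and −0.04 and 0.42 for Ptges. In organoids minus CAC it was −0.08 for Ptgs2 with library totals and between −0.48 and 0.11 for Ptger4 with 1 library left out. In organoids minus colitis it was −0.10 for Slco2a1 and −0.06 for Ptger4 with library totals, and with 1 library left out between −0.27 and 0.51 for Slco2a1 and −0.05 and 0.40 for Ptger4. Where a value moved, the cause was not tested. Depth limits Ptgds in colitis, Ptger3 in CAC and Ptger2 in the organoids, which had between 2 and 10 counts in some libraries.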
